A study of Mus musculus with 4 samples.

Results

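Receptors that let a macrophage take up opsonized particles, modified lipoproteins and dying cells were followed in J774.1 cells treated with inhibitors of the proteasome. They were chosen by name as 10 genes, which are 10 of the 20144 mouse genes that could be named on the arrays. *Fcgr1*, *Fcgr3*, *Fcgr4* and *Fcer1g* encode the activating Fc gamma receptors and their common gamma chain, and *Fcgr2b* encodes the inhibitory Fc gamma receptor. *Msr1*, *Cd36* and *Marco* encode scavenger receptors, and *Mertk* and *Axl* encode receptor kinases of the TAM family. J774.1 is a mouse monocyte-macrophage line. Cells were kept for 4 h in medium with fetal bovine serum and 1 μM of MG132, a proteasome inhibitor, of epoxomicin, an inhibitor of the 20S proteasome, or of ONX0914, an inhibitor of the β5 and β5i subunits. DMSO, the solvent, was the control. RNA of each condition was hybridized to 1 single-color array, so that 4 arrays were available with 1 array per condition, and no difference could be tested against the spread between cultures. One array carries a treatment label of ONX-0912, whereas its title begins with ONX and the treatment protocol names ONX0914 as the only ONX compound, and it is called ONX0914 here.

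Fc gamma receptors bind the constant part of IgG on coated particles. The activating receptors depend on the gamma chain, whose tyrosine motif is phosphorylated and binds the kinase Syk, while FcγRIIB carries an inhibitory motif that recruits phosphatases. Scavenger receptors bind modified lipoproteins and microbial surfaces. Mertk and Axl bind dying cells through bridging proteins, and the bridging proteins of the TAM family are Gas6 and protein S.

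Each value is the processed signal of a probe, which is the brightness of its spot after the scanner software subtracted the background. Differences between arrays are differences of log2 signals, each taken relative to the 75th percentile of the array, so a difference departs from the plain ratio of the signals where the arrays differed in overall brightness. The 75th percentile was 1654 in the DMSO cells, against 1453 in MG132, 1683 in epoxomicin and 1612 in ONX0914. All arrays lay on 1 slide and between 60.3% and 63.1% of their spots were well above background. Signals of different genes come from different probes and were not ranked against each other. The 10 receptor genes were represented by 11 probes, with 2 for *Msr1* and 1 for each of the remaining 9, and all 10 genes were well above background on all 4 arrays. Spread could be measured between repeated spots of one probe alone, and its median SD was between 0.0556 and 0.0615 on the log2 scale, and it holds no variation between cultures or RNA preparations. The array number thus limits the precision of every value below.

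The label of the cells was compared with defining markers. All 9 macrophage markers with a probe, among them *Adgre1*, *Csf1r* and *Spi1*, were well above background on every array. Their summed signal was between 317181 and 414180, of which the brightest marker gave between 165950 and 210824. None of the 5 mast cell and basophil markers, which include *Fcer1a* and *Ms4a2*, the partners of the gamma chain in the IgE receptor, was well above background on any array. Of 7 T cell markers, *Cd3e*, *Cd4* and *Lck* were well above background throughout, while *Cd3d*, *Cd3g*, *Cd8a* and *Cd2* were not on any array. The summed signal of the 7 was between 6796 and 9015, and the brightest of them had between 3679 and 4575. These sums come from different probes and were not ranked against each other. Of 5 B cell markers only *Cd79b* passed, with a signal of at most 35.3. Of 5 fibroblast markers *Col1a2* passed on every array and *Pdgfra* on the DMSO and epoxomicin arrays alone, with a signal of at most 85.6.

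With MG132, *Fcgr4*, *Mertk* and *Axl* were at least 2-fold above DMSO and no receptor gene was 2-fold below it. These 3 of 10 genes stand beside 7.25% of all 13773 genes compared that were 2-fold higher and 3.66% that were 2-fold lower. With epoxomicin, *Fcgr4* and *Axl* were 2-fold higher, 2 of 10 beside 8.41% of 13875 genes, and none was 2-fold lower, beside 4.5%. With ONX0914, 0 of 10 were 2-fold higher, beside 3.27% of 13794 genes, and 0 were 2-fold lower, beside 1.41%. On the log2 scale, the median of the 10 genes relative to DMSO was -0.09 for MG132, -0.04 for epoxomicin and 0.10 for ONX0914, and over all genes compared it was -0.02, -0.04 and -0.01. The medians lay near 0, and the 2-fold differences were those of single receptors. The 3 comparisons share the DMSO array, so a low or high signal on that array enters each of them.

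**Figure D1:**
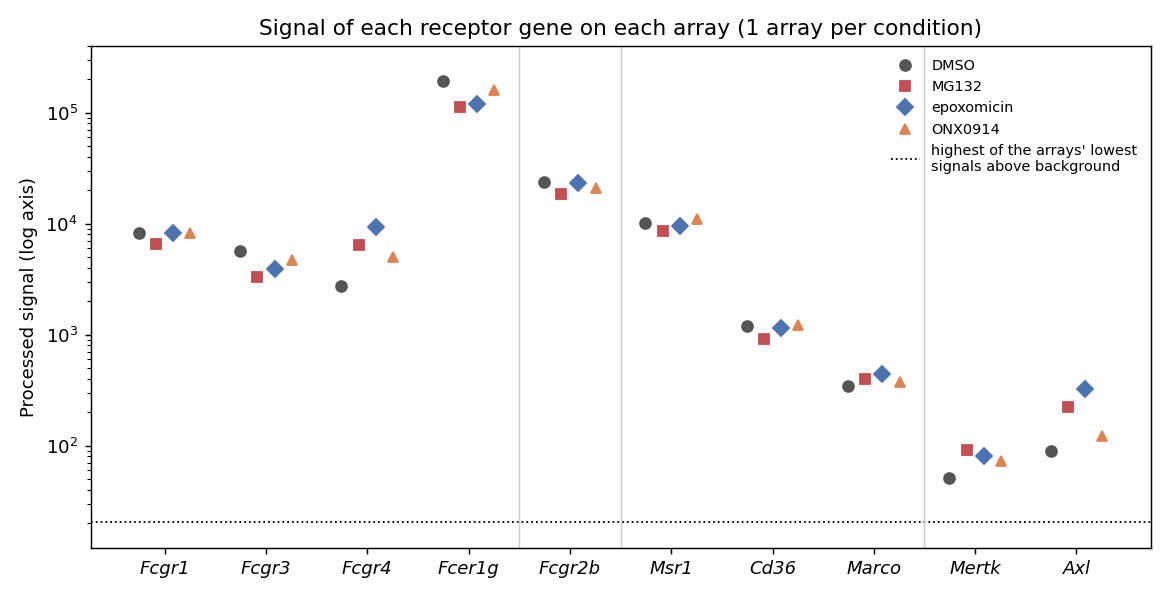
Processed signal (log axis) of the 10 receptor genes on the DMSO, MG132, epoxomicin and ONX0914 arrays, with 1 point per array and no error bar because each condition has 1 array. Grey lines separate activating Fc receptors, the inhibitory receptor, scavenger receptors and TAM kinases, and the dotted line at 20.3 is the highest of the arrays' lowest signals well above background. *Fcgr4* and *Axl* are lowest with DMSO and highest with epoxomicin. Heights may be compared between arrays for one gene but not between genes.

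*Fcgr4* encodes FcγRIV, an activating receptor of mouse myeloid cells. Its signal was 2743 in the DMSO cells, against 6359 in MG132, 9358 in epoxomicin and 4972 in ONX0914. Every inhibitor array was thus above the DMSO array, and the order was epoxomicin, MG132, ONX0914, DMSO. After scaling, *Fcgr4* exceeded DMSO by 2.64-fold under MG132 (1.40 on the log2 scale), 3.35-fold under epoxomicin (1.75) and 1.86-fold under ONX0914 (0.89). Among 12728 genes measured on all arrays it ranked 425 from the highest for MG132, 324 for epoxomicin and 356 for ONX0914. The difference was also steady across processing: over all alternatives it ran from 1.21 to 1.43 for MG132, from 1.67 to 1.77 for epoxomicin and from 0.84 to 0.93 for ONX0914.

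The remaining activating receptors did not share this difference. *Fcgr3* encodes FcγRIII, and its signal was 5653 in the DMSO cells, against 3324 in MG132, 3924 in epoxomicin and 4736 in ONX0914. DMSO was the highest of the arrays. The differences were -0.58, -0.55 and -0.22 on the log2 scale, or 1.49-fold, 1.47-fold and 1.16-fold lower, all short of 2-fold. *Fcer1g* encodes the gamma chain on which the activating receptors rely for signalling and for stable surface expression. Its signal was 191910 in the DMSO cells, against 112956 in MG132, 119390 in epoxomicin and 160378 in ONX0914. DMSO was again highest and ONX0914 nearest to it, with differences of -0.58, -0.71 and -0.22, or 1.49-fold, 1.64-fold and 1.17-fold lower. None of these spots was saturated. *Fcgr1* encodes FcγRI, the high-affinity receptor, and its signal was 8264 in the DMSO cells, against 6614 in MG132, 8217 in epoxomicin and 8291 in ONX0914. MG132 stood below the other arrays before scaling, and the scaled differences were only -0.13, -0.03 and 0.04.

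*Fcgr2b* encodes FcγRIIB, the inhibitory receptor of the family. Its probe was printed 10 times on each array, and the mean signal was 23531 in the DMSO cells, against 18557 in MG132, 23172 in epoxomicin and 21018 in ONX0914. Relative to DMSO, the spots of the MG132 array averaged -0.16 ± 0.02, those of the epoxomicin array -0.05 ± 0.03 and those of the ONX0914 array -0.13 ± 0.02 (log2 scale, SD, n = 10 spots). Over single spots it ran from -0.20 to -0.12 with MG132, from -0.09 to 0.01 with epoxomicin and from -0.17 to -0.10 with ONX0914. The spots of MG132 and ONX0914 were thus all on one side of 0, with a size far below 2-fold, while those of epoxomicin lay on both sides. This held for the processed signal, and with normexp background correction on all spots *Fcgr2b* was at 0.01, 0.13 and 0.03 with MG132, epoxomicin and ONX0914. Spots of one array share one RNA sample, and the SD is technical.

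Differences of these genes were set against each other within each pair of arrays, where a constant scaling of an array cancels. The ratio of *Fcgr4* to *Fcgr2b*, the activating to the inhibitory receptor, exceeded that of DMSO by 2.94-fold, 3.46-fold and 2.03-fold in the order MG132, epoxomicin, ONX0914. The ratio of *Fcgr3*, another activating receptor, to *Fcgr2b* lay on the opposite side, at -0.42, -0.50 and -0.09 on the log2 scale. *Fcgr4* against *Fcgr3*, both of them activating, gave a ratio 3.94-fold, 4.91-fold and 2.16-fold above that of DMSO. *Fcgr4* against its signalling partner *Fcer1g* gave 3.94-fold, 5.48-fold and 2.17-fold. By contrast, the ratio of *Fcgr1* to *Fcgr2b* differed from DMSO by at most 1.12-fold, with log2 differences of 0.02, 0.01 and 0.17.

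**Figure D2:**
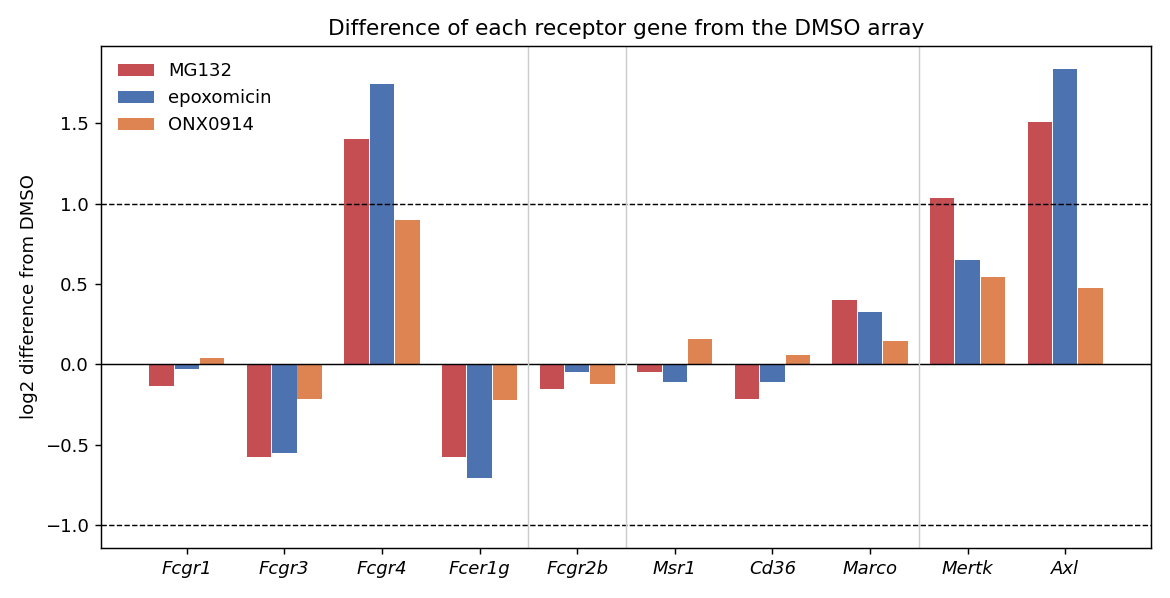
Difference from the DMSO array on the log2 scale for the 10 receptor genes, with 1 bar each for MG132, epoxomicin and ONX0914 and dashed lines at a 2-fold difference. There is no error bar because each condition has 1 array. Bars of *Fcgr4* and *Axl* pass the upper line with MG132 and epoxomicin, that of *Mertk* passes it with MG132, and none reaches the lower line.

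*Fcgr2b*, *Fcgr4* and *Fcgr3* follow each other on mouse chromosome 1, and *Fcer1g* lies further along it. In the RefSeq table, 11 protein-coding genes run from *Fcgr2b* to *Fcer1g*, of which 7 are not among the receptors. Of these 7, 6 could be compared with every inhibitor and 0 were 2-fold from DMSO with any of them. Over all genes, 7.25% were 2-fold higher and 3.66% lower with MG132, 8.41% and 4.5% with epoxomicin, and 3.27% and 1.41% with ONX0914. At such shares a count of 0 among 6 genes says little about this stretch. *Cfap126*, next to *Fcgr3*, differed from DMSO by -0.13, 0.04 and -0.13 in the order MG132, epoxomicin, ONX0914, and *Sdhc*, a subunit of succinate dehydrogenase, by -0.79, -0.70 and -0.004. *Nr1i3* was the furthest of the 6 from DMSO with any inhibitor, with -0.29, -0.09 and -0.90. In this stretch, no gene compared other than *Fcgr4* was 2-fold from DMSO. Genes beyond *Fcgr2b* on the other side were not examined as neighbours, so nothing is said about them. *Fcgr2b*, *Fcgr3* and *Fcgr4* are paralogs, and whether their probes also bind transcripts of the other receptors was not tested.

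Because neighbouring Fc receptor genes differed in direction, the promoters of *Fcgr4*, *Fcgr3*, *Fcgr2b* and *Fcer1g* are printed for comparison, along with that of *Fcgr1* and that of *Axl*, the other receptor gene 2-fold higher with both MG132 and epoxomicin. The sequences are those of RefSeq on GRCm38.p6, 300 bases each, from 250 before to 50 after a transcript's start, in the direction of the gene. They were matched by symbol, and 9 of the 10 receptor genes had at least 1 window. Capitals mark matches on either strand to 3 short motifs, namely the core of the interferon-stimulated response element (GAAA, any 2 bases and GAAA again), the GAS element bound by STAT factors (TTCNNNGAA) and a core bound by PU.1 (GAGGAAG, or CTTCCTC on the other strand). The windows are *Fcgr4* at chr1:171018676-171018975 on the + strand, *Fcgr3* at chr1:171059345-171059644, *Fcgr2b* at chr1:170976022-170976321, *Fcer1g* at chr1:171234300-171234599, *Fcgr1* at chr3:96293920-96294219 and *Axl* at chr7:25788684-25788983, all but the first on the - strand.
Fcgr4: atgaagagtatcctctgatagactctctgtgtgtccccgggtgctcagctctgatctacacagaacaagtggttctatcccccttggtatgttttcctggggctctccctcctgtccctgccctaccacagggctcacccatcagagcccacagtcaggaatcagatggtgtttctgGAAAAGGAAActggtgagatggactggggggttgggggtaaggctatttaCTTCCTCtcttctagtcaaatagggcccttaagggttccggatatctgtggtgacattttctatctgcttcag
Fcgr3: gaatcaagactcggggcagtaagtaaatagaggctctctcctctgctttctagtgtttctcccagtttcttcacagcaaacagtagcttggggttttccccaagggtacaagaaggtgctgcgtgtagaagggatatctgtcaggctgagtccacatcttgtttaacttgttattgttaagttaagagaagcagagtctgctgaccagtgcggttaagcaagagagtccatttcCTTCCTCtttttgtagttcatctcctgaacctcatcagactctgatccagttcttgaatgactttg
Fcgr2b: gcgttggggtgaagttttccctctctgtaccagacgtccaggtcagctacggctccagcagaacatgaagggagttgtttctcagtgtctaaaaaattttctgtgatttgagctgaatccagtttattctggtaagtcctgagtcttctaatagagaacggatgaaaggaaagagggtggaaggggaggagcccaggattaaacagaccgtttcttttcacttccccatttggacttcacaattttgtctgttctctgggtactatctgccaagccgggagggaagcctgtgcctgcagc
Fcer1g: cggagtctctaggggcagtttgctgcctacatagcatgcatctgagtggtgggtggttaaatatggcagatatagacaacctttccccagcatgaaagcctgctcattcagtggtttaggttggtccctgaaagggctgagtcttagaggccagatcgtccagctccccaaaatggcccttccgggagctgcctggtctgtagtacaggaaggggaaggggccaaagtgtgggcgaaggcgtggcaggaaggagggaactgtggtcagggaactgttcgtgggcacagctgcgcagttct
Fcgr1: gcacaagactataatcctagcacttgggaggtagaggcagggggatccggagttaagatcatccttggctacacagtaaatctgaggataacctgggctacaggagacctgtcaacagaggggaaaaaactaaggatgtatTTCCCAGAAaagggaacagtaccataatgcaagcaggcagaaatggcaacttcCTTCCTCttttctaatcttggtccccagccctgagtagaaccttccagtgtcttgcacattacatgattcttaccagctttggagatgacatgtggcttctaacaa
Axl: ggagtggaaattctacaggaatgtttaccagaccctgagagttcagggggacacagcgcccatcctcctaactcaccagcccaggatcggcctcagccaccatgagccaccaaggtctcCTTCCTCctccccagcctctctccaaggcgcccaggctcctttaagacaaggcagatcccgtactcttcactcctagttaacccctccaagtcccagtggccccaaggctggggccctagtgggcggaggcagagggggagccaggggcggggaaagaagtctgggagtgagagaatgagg

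The *Fcgr4* window held the response element core from base -73 to -64 and the PU.1 core from -23 to -17, where -1 is the base before the start. The response element core was in 3.44% of all 32851 promoter windows and in no other receptor window, and no motif overlapped another. The *Fcgr3* window held the PU.1 core from -16 to -10 and no other motif, and the *Fcgr2b* and *Fcer1g* windows held none of the motifs. *Fcgr1* held a GAS element from -109 to -101, found in 8.30% of all windows, and a PU.1 core from -56 to -50. *Axl* held a PU.1 core from -131 to -125. With *Marco*, which is not printed, 5 of the 9 genes held a PU.1 core. Counted by window it was 6 of 10, with *Fcgr3* counted more than once, beside 13.6% of all windows. An antioxidant response element core (TGACNNNGC) and an AP-1 site (TGANTCA) were also searched on both strands and were in 0 of the 10 receptor windows, beside 12.4% and 7.81% of all windows. A match of letters is a description of the sequence, and binding was not measured.

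None of the 3 scavenger receptor genes was 2-fold from DMSO with any inhibitor. *Msr1* encodes scavenger receptor A, and the signal of its brighter probe was 10097 in the DMSO cells, against 8594 in MG132, 9518 in epoxomicin and 10972 in ONX0914. The second probe of the same transcript had 7195, 7415, 9066 and 7648. The probes differed in sign, with -0.05 and -0.11 on the log2 scale for the brighter probe against 0.23 and 0.31 for the other with MG132 and epoxomicin, while ONX0914 gave 0.16 and 0.12. No direction can be given for *Msr1* with MG132 or epoxomicin.

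*Cd36*, a receptor for oxidized lipoprotein and long-chain fatty acids, had a signal of 1207 in the DMSO cells, against 912 in MG132, 1135 in epoxomicin and 1225 in ONX0914. MG132 was lowest, and the scaled differences were -0.22, -0.11 and 0.06. *Marco*, a collagen-like receptor that binds bacteria and particles, had a signal of 344 in the DMSO cells, against 399 in MG132, 438 in epoxomicin and 371 in ONX0914. DMSO was lowest, and the differences of 0.40, 0.33 and 0.15 were short of 2-fold. With normexp correction fitted on all spots the *Marco* values were -0.01, -0.10 and -0.21, so their sign depended on the background correction.

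*Axl* and *Mertk* had low signals. That of *Axl* was 89.0 in the DMSO cells, against 222 in MG132, 324 in epoxomicin and 121 in ONX0914. DMSO was lowest and epoxomicin highest, as for *Fcgr4*. *Axl* exceeded DMSO by 2.84-fold under MG132 (1.51 on the log2 scale), 3.58-fold under epoxomicin (1.84) and 1.39-fold under ONX0914 (0.48), and it ranked 370, 296 and 1059 from the highest of 12728 genes. *Mertk* had a signal of 50.9 in the DMSO cells, against 91.8 in MG132, 81.1 in epoxomicin and 72.2 in ONX0914. DMSO was again lowest, but MG132 was highest. *Mertk* exceeded DMSO by 2.05-fold under MG132 (1.04), 1.56-fold under epoxomicin (0.65) and 1.45-fold under ONX0914 (0.54).

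The 2-fold difference of *Mertk* with MG132 was marginal, at 0.92 under quantile normalization, 0.94 after a shift to the median and 0.85 without scaling. Both TAM kinases also depended on how background was subtracted. When it was modelled by normexp on all spots, *Axl* was at -0.04, 0.20 and -0.70 with MG132, epoxomicin and ONX0914, and *Mertk* at -0.63, -0.99 and -1.01. In the same setting 2486 of all genes were 2-fold lower with MG132 and 472 higher, against 504 lower and 998 higher with the processed signal. When normexp was fitted without the spots that the scanner software marked as outliers, a setting chosen after the data had been seen, *Axl* was at 0.93, 1.17 and 0.28 and *Mertk* at 0.53, 0.17 and 0.15. The size for both genes, and their sign in the first setting, thus rested on the background, whereas *Fcgr4* stayed between 1.35 and 1.43 with MG132 in both normexp settings.

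**Figure D3:**
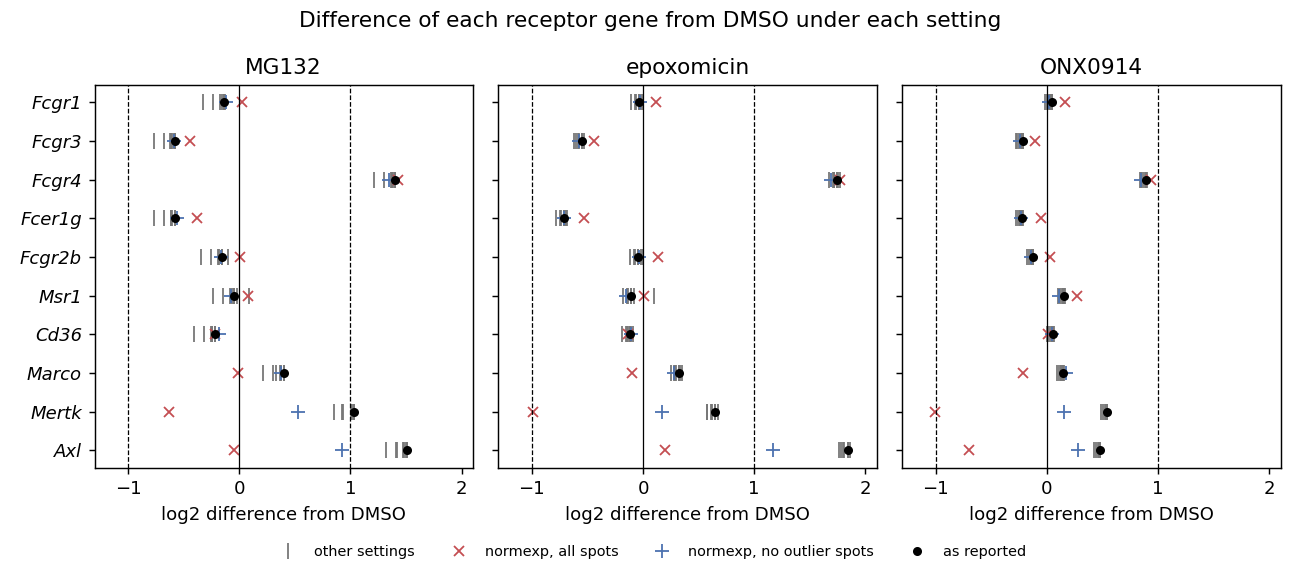
Difference of the 10 receptor genes from DMSO on the log2 scale with MG132, epoxomicin and ONX0914 under each processing. Black points are the values as reported, grey ticks the settings without normexp, red crosses normexp fitted on all spots and blue plus signs normexp fitted without outlier spots, and dashed lines mark a 2-fold difference. *Fcgr4* stays within a narrow range, whereas *Axl* moves from 1.51 to -0.04 and *Mertk* from 1.04 to -0.63 with MG132.

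The inhibitors were compared with each other at the same dose and time in 3 pairs, with no test because each has 1 array. Between epoxomicin and MG132, 0 of the 10 receptor genes were 2-fold higher and 0 were 2-fold lower, beside 0.785% and 0.719% of 13632 genes. The widest of these differences were 0.35 for *Fcgr4* and 0.33 for *Axl*, both higher with epoxomicin, and -0.39 for *Mertk*, which was higher with MG132. ONX0914 was below the other inhibitors at both *Fcgr4* and *Axl*. *Axl* was 2.04-fold lower with ONX0914 than with MG132 (-1.03) and 2.57-fold lower than with epoxomicin (-1.36), the only receptor gene 2-fold lower in either pair, beside 3.05% of 13705 genes and 4.38% of 13793 genes. *Fcgr4* was at -0.50 against MG132 and -0.85 against epoxomicin. No receptor gene was 2-fold higher with ONX0914 than with MG132 or epoxomicin, beside 1.07% and 1.56% of genes. Against MG132, the call of *Axl* was lost under quantile normalization, a shift to the median, no scaling and both normexp settings, and against epoxomicin under both normexp settings.

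Genes that act with these receptors were taken from 6 lists written for the pathway. The counts of every list below stand beside the shares of all genes compared. These were 7.25% higher and 3.66% lower with MG132, 8.41% and 4.5% with epoxomicin, and 3.27% and 1.41% with ONX0914. At such shares a count of 0 or of a few genes in a short list says little. Of 26 genes of Fc receptor signalling, 24 could be compared, and their median was -0.30 for MG132, -0.28 for epoxomicin and -0.10 for ONX0914. *Syk*, the kinase bound by the phosphorylated gamma chain, had a signal of 3496 in the DMSO cells, against 2298 in MG132, 2662 in epoxomicin and 2895 in ONX0914, and differences of -0.42, -0.42 and -0.24. *Ptpn6*, the phosphatase SHP-1 that opposes activating signals, was the only gene of the list 2-fold lower. Its signal was 37194, 12449, 14014 and 23257 in the same order of arrays, with differences of -1.39, -1.43 and -0.64. *Cblb*, a ubiquitin ligase that restrains receptor signalling, had the highest mean difference, with signals of 240, 355, 501 and 280 and differences of 0.75, 1.04 and 0.26, so that 1 of 24 was 2-fold higher with epoxomicin and 0 with MG132 or ONX0914. That call was marginal, since *Cblb* with epoxomicin fell just short of 2-fold under quantile normalization, a shift to the median and the percentile over detected probes, and was at 0.49 as a mean over its probes and at 0.28 and 0.89 under normexp on all spots and without outlier spots. With ONX0914 it was at -0.33 under normexp on all spots.

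Of 13 other Fc receptors and Fc receptor-like genes, 8 could be compared. *Fcrlb* and *Trim21*, the cytosolic antibody receptor, were 2-fold higher with both MG132 and epoxomicin, and 0 of 8 were 2-fold from DMSO with ONX0914. The differences of *Trim21* were 1.08, 1.53 and 0.77, the first of them close to the threshold, and *Trim21* was not recomputed under the alternatives. *Fcgrt*, the neonatal Fc receptor that recycles IgG, had the lowest mean difference, with signals of 3418, 2106, 2180 and 2941 and differences of -0.51, -0.67 and -0.18. *Fcrlb* was dim, with signals of 19.9, 60.0, 48.0 and 29.1 and differences of 1.78, 1.24 and 0.58. The list had a median of 0.12 for MG132, -0.06 for epoxomicin and 0.13 for ONX0914.

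The ligands and the third kinase of the TAM family gave a mixed picture. *Tyro3* had a signal of 497 in the DMSO cells, against 953 in MG132, 1116 in epoxomicin and 764 in ONX0914. It was lowest with DMSO, like *Axl* and *Mertk*, and was 2.18-fold, 2.21-fold and 1.58-fold higher with the inhibitors. *Gas6*, a ligand of all TAM kinases, had 36.9, 96.9, 77.6 and 33.9, with differences of 1.58, 1.05 and -0.09. *Pros1*, the gene of protein S, had 39.9 with DMSO and 27.5 with ONX0914, and was not well above background with MG132 or epoxomicin. For the processed signal it was at least 1.97-fold lower with either of them, and under normexp without outlier spots it was at -0.19 and -0.39, short of that bound. Of the 20 genes compared in the list of TAM ligands and uptake of apoptotic cells, *Adgrb1*, *Gas6* and *Tyro3* were 2-fold higher with MG132 and with epoxomicin, and 0 were 2-fold higher or lower with ONX0914. *Adgrb1*, a receptor for phosphatidylserine on dying cells, had the highest mean difference, with signals of 39.8, 256, 445 and 71.6 and differences of 2.87, 3.46 and 0.88. Its probes disagreed in size, and their mean gave 1.37, 1.70 and 0.38, while the mean over probes of *Tyro3* gave 0.94, 0.88 and 0.56, short of 2-fold. The list medians were -0.05, -0.02 and -0.03. Under normexp on all spots *Gas6* was at -0.62 and -1.12 with MG132 and epoxomicin, and *Fcrlb* at -0.64 and -1.07, so the direction of both depended on the background correction. *Adgrb1* was at 0.25, 0.68 and -0.87 with MG132, epoxomicin and ONX0914 in that setting, and *Tyro3* at 0.60, 0.56 and 0.18, all short of 2-fold.

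Among 21 other scavenger receptors, 10 could be compared with MG132 and with epoxomicin and 9 with ONX0914. *Cd5l*, a secreted protein of macrophages with scavenger receptor domains, and *Cxcl16*, which binds oxidized lipoprotein, were 2-fold higher with both MG132 and epoxomicin. *Stab2* was 2-fold higher with epoxomicin (1.17) and could not be compared with ONX0914. None of the 9 genes compared with ONX0914 was 2-fold higher. Neither *Cxcl16* nor *Stab2* was recomputed under the alternatives. *Cd5l* had signals of 68.1, 221, 330 and 80.8 and differences of 1.89, 2.25 and 0.28, and at the other end *Scarb2*, a lysosomal membrane protein, had 2481, 1151, 1534 and 2219 and differences of -0.92, -0.72 and -0.12. The list medians were -0.15, -0.27 and -0.06. Of 8 complement receptors and integrins compared, only *Itgax* was 2-fold higher with MG132 (1.00) and epoxomicin (1.05), from 92.3 with DMSO to 163 and 195, and *C5ar1*, the receptor of complement C5a, had the lowest mean difference (-0.34, -0.45 and -0.33). Under normexp on all spots *Cd5l* was at -0.06 with MG132 and 0.13 with epoxomicin, and *Itgax* at -0.35 and -0.36. Of 16 genes of the phagosome compared, 0 were 2-fold from DMSO with any inhibitor, which says little at the shares of all genes given with the lists. In that list *Rab5a*, a GTPase of early endosomes and phagosomes, stood highest with 0.66, 0.78 and 0.33, and *Cyba*, a subunit of the phagocyte oxidase, lowest with -0.31, -0.46 and -0.08.

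**Figure D4:**
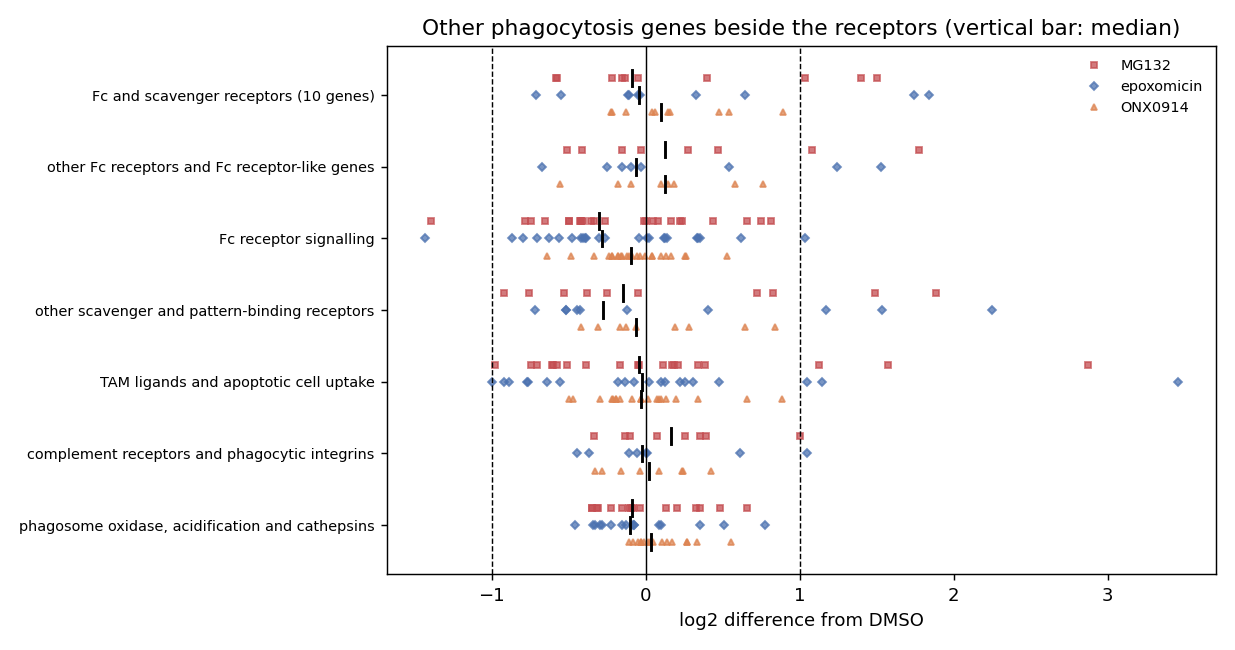
Difference from DMSO on the log2 scale of single genes in the 10 receptor genes and in 6 further lists of phagocytosis genes, with 1 marker per gene and inhibitor, black bars at list medians and dashed lines at a 2-fold difference. List medians lie between -0.30 and 0.16, and single genes such as *Adgrb1*, drawn at 3.46 with epoxomicin for the probe that stands for it (1.70 as a mean over its probes), stand far from them. *Pros1* is drawn at its bound with MG132 and epoxomicin.

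*Fcgr4* had the largest mean absolute difference from DMSO of the 10 receptor genes, 1.35 on the log2 scale. The genes nearest to it in pattern, by Euclidean distance over its 3 differences from DMSO among genes measured on all 4 arrays, were *Dnaja1*, *Parp12* and *Nabp1*. *Dnaja1*, a co-chaperone of Hsp70, lay at a distance of 0.0554, with differences of 1.41, 1.73 and 0.84. *Parp12*, an interferon-stimulated gene, lay at 0.0917, with 1.48, 1.70 and 0.87. *Nabp1*, a single-stranded DNA binding protein, lay at 0.120, with 1.36, 1.68 and 0.80. The likeness rests on 4 arrays and on differences that share one of them.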

How the data were processed

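RNA of J774.1 cells was measured on 4 arrays. The authors deposited the intensity of each spot from Agilent Feature Extraction 10.7.1.1, background-subtracted within the array and not scaled between arrays, along with the software's calls, and a table of log2 values normalized with GeneSpring, used as an alternative. The file headers describe a mouse design, which was used although a human one is named in the methods, and probes were named through their transcript accession and RefSeq (GRCm38.p6). Of 39429 probes, 26581 (67.4%) received a symbol.

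Control spots and between 159 and 194 outlier spots per array were left out. The log2 signal minus the array's 75th percentile was averaged over repeated spots, and the probe with the highest mean stood for a gene. Comparisons took in genes detected well above background on 1 or both of their arrays, and 14384 genes were so detected on any array and 12728 on all. Where a signal was not well above background, its place was taken by the higher of that signal and the lowest signal well above background on the same array, which gives an "at least" bound. Where the value put in its place exceeded the detected signal of the other array after scaling, the gene was left out of that comparison. Genes were counted at a 2-fold difference. No test was possible with 1 array per condition.

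The receptor genes and the lists were chosen with earlier results of these data known. Named genes are the 10 receptors, *Syk*, *Tyro3*, *Gas6*, *Pros1*, the highest and lowest gene of each of 6 lists by the mean of its differences, and the 3 genes nearest in pattern to the receptor with the largest mean absolute difference. *Trim21*, *Cxcl16* and *Stab2* were named after their values were seen, as were *Cfap126*, *Sdhc* and *Nr1i3*, neighbours on the chromosome.

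Alternatives were normexp (offset 50, on the median brightness of a spot), a shift to the median, quantile normalization, no scaling, the percentile over detected probes, the mean over probes of a gene, the authors' table, signals in place of bounds, a stricter filter, outlier spots kept and a 1.5-fold threshold. Calculations were tested on simulated data and used Python 3.11.15, numpy 2.4.6, pandas 2.3.3, R 4.3.3 and limma 3.58.1.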

Additional observations from a re-analysis of the deposited data

How the results depend on the processing

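Of 330 differences of the receptor genes recomputed under the alternatives, 277 moved by less than 0.0870 on the log2 scale, which is the largest median SD between repeated spots times the square root of 2. The rest moved by more. In all, 18 differences of 6 receptor genes changed sign, 15 of them under normexp on all spots (*Axl*, *Fcgr1*, *Fcgr2b*, *Marco*, *Mertk* and *Msr1*), 2 with the mean over probes (*Msr1*) and 1 with the percentile over detected probes (*Fcgr1* with ONX0914, -0.015). Of those, the differences reported as 2-fold were *Mertk*, at -0.63, and *Axl*, at -0.043, both with MG132 under normexp on all spots. In the same setting *Cd5l* was at -0.060, *Fcrlb* at -0.64, *Gas6* at -0.62 and *Itgax* at -0.35 with MG132, and *Fcrlb* at -1.07, *Gas6* at -1.12 and *Itgax* at -0.36 with epoxomicin. The median of all genes was then -0.27, -0.30 and -0.16 with MG132, epoxomicin and ONX0914, against -0.02, -0.04 and -0.01, and 472, 570 and 192 genes were 2-fold higher and 2486, 2991 and 2667 lower, against 998, 1167 and 451 higher and 504, 624 and 194 lower. The cause was not tested. With normexp fitted without outlier spots, chosen after seeing the data, 604, 697 and 215 genes were higher and 285, 380 and 74 lower.

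The count of receptor genes 2-fold higher with MG132 fell from 3 to 2 under quantile normalization, a shift to the median and no scaling. The shares of all genes there were 6.55%, 6.14% and 5.32%. It fell to 1 under both normexp settings, beside 3.45% of all genes on all spots and 4.44% without outlier spots. With epoxomicin the count fell from 2 to 1 under normexp on all spots, beside 4.16%. In that setting 1 receptor gene, *Mertk* at -1.01, was 2-fold lower with ONX0914 than with DMSO, beside 19.5% of 13669 genes. The receptor median with ONX0914 was -0.0184, against -0.16 for all genes. The 1 gene lower with ONX0914 than with MG132 became 0 under both normexp settings, quantile normalization, a shift to the median and no scaling, and the 1 gene lower than with epoxomicin became 0 under both normexp settings. A shift to the median gave a receptor median of -0.19 with MG132, and no scaling gave -0.28, with a median of all genes of -0.20. In that setting 740 genes were higher and 904 lower with MG132, and with a shift to the median 850 and 688. At a 1.5-fold threshold 1 receptor gene was lower with epoxomicin, 1 was higher with ONX0914 and 2 were lower with ONX0914 than with epoxomicin. The share of all genes passing 1.5-fold was not counted, so these counts cannot be set against it.

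Each condition has 1 array, so variation between cultures is unknown, and there was no replicate to leave out. No paired analysis was possible because each condition has 1 array, so no second pair of arrays exists. Signals of *Mertk*, *Axl*, *Adgrb1*, *Cd5l*, *Itgax*, *Gas6*, *Pros1* and *Fcrlb* with DMSO were at most 92.3, and their differences moved with the background correction.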
